A study of Mus musculus with 6 samples.

Results

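The genes described here carry out antigen presentation by MHC class I, the route by which nearly every nucleated cell shows peptides of its own proteins on its surface. There were 10 of them among the 37620 genes of the count tables, taken for their function in this route: the heavy chains H2-K1 and H2-D1, the light chain B2m, the peptide transporter genes Tap1 and Tap2, the loading factor Tapbp, the immunoproteasome genes Psmb8, Psmb9 and Psmb10, and the regulator Nlrc5. RNA was measured in 6 libraries of cultured mouse cells. ESC 1 and 2 came from wild-type J1 embryonic stem cells, a mouse line, grown with LIF and serum on fibroblast feeders that had been inactivated with mitomycin-C. NPC 1 and 2 came from wild-type neural progenitor cells made from J1 cells in culture. Phc1-KO 1 and 2 carried the genotype Phc1-/- on the same J1 background, Phc1 being a subunit of the Polycomb repressive complex PRC1. Whether the Phc1-KO cells are 1 clone or several, which part of the gene was deleted and how, is not given in the sources used here. Feeder cells were removed from ESC before use, and the labels name 2 biological replicates for each group, so n = 2 throughout.

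In this pathway the proteasome cuts cytosolic proteins into peptides, and the immunoproteasome is a form in which the subunits encoded by Psmb8, Psmb9 and Psmb10 take the place of those encoded by Psmb5, Psmb6 and Psmb7. TAP, a pair of Tap1 and Tap2 chains, pumps the peptides into the endoplasmic reticulum, where tapasin, the product of Tapbp, helps to load them on a heavy chain bound to β2-microglobulin, the product of B2m. Nlrc5 is a transactivator that has no DNA-binding part of its own and acts on class I promoters through factors at the X and Y boxes, and interferons raise most genes of the route through IRF and other factors. Embryonic stem cells and neural cells are known for low surface class I.

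The promoters of the heavy chains and of the light chain are shown because their genes differed from each other in these data. All 3 carry the IRF type of site and the X2 and Y cores. The κB letters searched for were found for H2-K1 and H2-D1 and not in the B2m window. The B2m stretch does hold gggaaagtccc, a near match on the other strand that those letters leave out. Other forms of the κB site were not searched for, so no difference in κB sites is shown. Letters are from RefSeq windows reaching from 250 bases before to 50 bases after the gene's start, taken from build GRCm38.p6; 8 of the 10 genes had an entry, all but Tap2 and Nlrc5. Each window matched the mm9 genome exactly at 1 place, and the mm9 position is given. Capitals mark κB (the NF-κB type of site, GGG and TTCCC around any 2 bases), AANNGAAA (the IRF type of site, here also in its reverse complement) and the pair TGACG and ATTGG (cores of the X2 and Y boxes); both strands were searched and no 2 marked elements overlap.
H2-K1, chr17:34137294-34137413, minus strand: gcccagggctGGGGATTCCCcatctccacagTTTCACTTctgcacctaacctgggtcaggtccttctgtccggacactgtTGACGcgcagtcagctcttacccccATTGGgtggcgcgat
H2-D1, chr17:35399858-35399977, plus strand: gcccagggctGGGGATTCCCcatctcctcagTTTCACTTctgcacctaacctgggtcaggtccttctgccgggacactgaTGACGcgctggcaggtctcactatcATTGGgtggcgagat
B2m, chr2:121973276-121973384, plus strand: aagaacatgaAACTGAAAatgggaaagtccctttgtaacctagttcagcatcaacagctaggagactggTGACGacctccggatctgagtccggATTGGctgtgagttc

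The H2-K1 and H2-D1 stretches were identical at 108 of 120 bases. In all 3 genes TGACG and ATTGG stood 20 bases apart on the coding strand. For H2-K1, which had 2 entries, the first was used. Searched on both strands, that spacing was found in 31 of the 32851 promoter windows of the table (0.0944%), where a gene can have several windows. With any gap up to 30 bases the pair was in 0.913%. The other letters were more common, AANNGAAA being in 23.9% of windows, TGACG in 20.8%, ATTGG in 37.4% and κB in 1.75%. The pair was not found in the windows of Tap1, Tapbp, Psmb8, Psmb9 or Psmb10. The Tapbp window (34056173 to 34056472) lies inside the counted gene model, which begins at 34052844. So does the Psmb8 window (34334890 to 34335189), in a model that begins at 34334666. For these genes the search did not cover the sequence before the model's first base. A match of letters describes the sequence and is not evidence that a factor was bound.

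The libraries held 15226214 to 21893821 reads counted in genes. For each such read a further 1.11 to 1.70 alignments were tallied as not unique and given to no gene. That tally may hold a read more than once. Such losses bear on the near-identical heavy chain genes. Stem cell markers (6 genes in the tables, such as Pou5f1 and Nanog) summed to 2074 and 2089 CPM (counts over the library size, scaled by TMM) in ESC, 6.97 and 7.34 in NPC, and 2021 and 2470 in Phc1-KO. Neural progenitor markers (6 genes in the tables, such as Fabp7 and Olig2) summed to 205 and 215 CPM in ESC, 3369 and 1514 in NPC, and 199 and 181 in Phc1-KO. The cell type entry of the Phc1-KO libraries reads NPC, and the summed markers go against it and with the title of the study, which calls them ESC. Of the neural markers Pax6 alone did not follow the sum: it stood at 4.44 and 4.68 CPM in ESC, 21.0 and 16.9 in NPC and 21.5 and 20.8 in Phc1-KO. Phc1 itself stood at 460 and 461 CPM in ESC, 40.8 and 34.6 in NPC and 326 and 267 in the libraries labelled Phc1-KO, a gene-level count that checks no deletion of unknown extent. The ESC pair had a biological coefficient of variation of 1.98%, against 27.5% for NPC and 18.1% for Phc1-KO, so results were also read with the ESC pair counted as 1 library. The Phc1-KO libraries differed in reads that aligned outside gene models, with 1.08 of them per gene read in library 1 and 0.661 in library 2.

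Of the 10 genes, 9 had reads and passed the filter on low counts. Psmb9 was listed at 0 in all 6 libraries. The annotation holds it as 2 models on the minus strand of chromosome 17 (ENSMUSG00000024337 at 34318932 to 34324697 and ENSMUSG00000092299 at 34318933 to 34324709), and 3647 of the 3648 exon bases of the first lie in exons of the second. HTSeq tallies a read that lies in exons of 2 genes as ambiguous in its usual modes, and each library here had 508721 to 870094 ambiguous reads. Among protein-coding models with at least 99% of exon bases inside another model of the same strand, 102 of 107 were at 0 in every library, against 2787 of 22230 other protein-coding models (12.5%). The level of Psmb9 RNA can therefore not be read from these tables, and the 0 is no measurement of the gene.

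**Figure D1:**
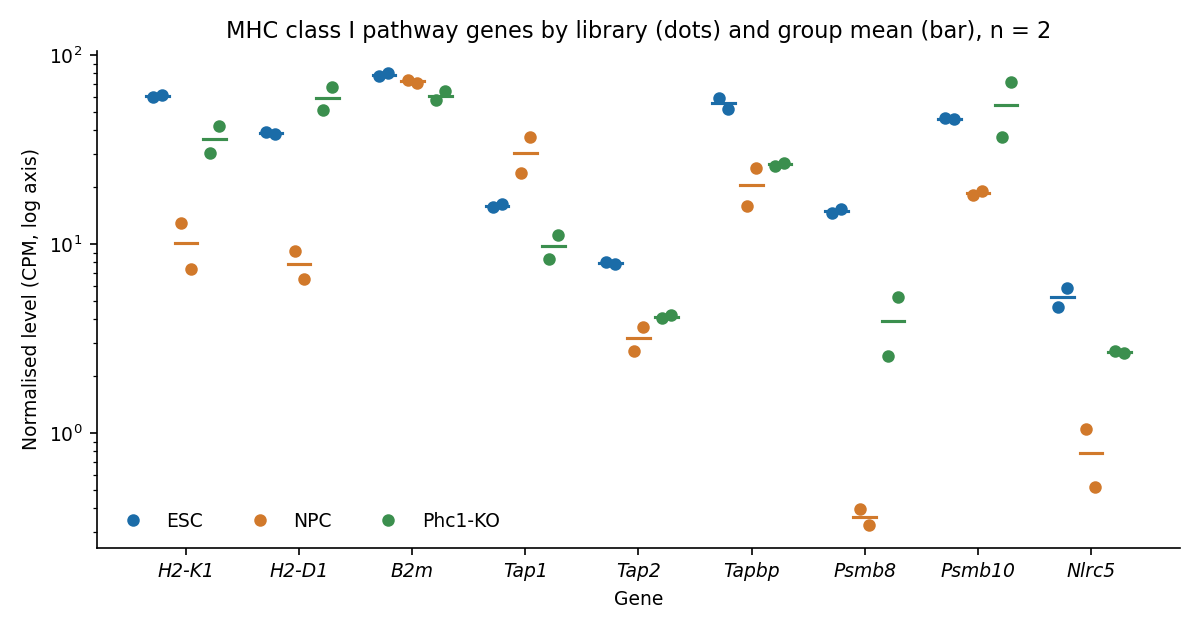
Level of each class I pathway gene with reads, in CPM on a log axis, for the 2 libraries of ESC, NPC and Phc1-KO (dots) with the mean of the pair (bar). B2m stays between 57.6 and 79.9 CPM in all 6 libraries, while Psmb8 spans 0.325 to 15.2 CPM.

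Compared per kilobase of exon, B2m was the most abundant of the 9 genes in each group, at 91.3 ± 2.23 CPM per kb (SD, n = 2) in ESC, 84.3 ± 1.99 in NPC and 70.9 ± 5.54 in Phc1-KO. Psmb10 came next in each group, at 36.2, 14.7 and 42.9 CPM per kb in that order, and Nlrc5 had the lowest mean in each, at 0.717, 0.108 and 0.369, though in NPC its range overlapped that of Psmb8, at 0.131. Between them the order changed. In ESC the heavy chain H2-K1, at 23.3 CPM per kb, stood above H2-D1 at 14.9, and in Phc1-KO H2-D1, at 22.9, stood above H2-K1 at 13.8. In NPC both were lower than Tap1, which was at 5.51 CPM per kb against 3.89 for H2-K1 and 3.02 for H2-D1; the ranges of Tap1 (4.31 to 6.70) and H2-K1 (2.84 to 4.94) overlapped there, as did those of H2-K1 and H2-D1 (2.51 to 3.53) and of Tap1 and Tapbp (4.83 to 7.66). In Phc1-KO the range of Psmb8 (0.938 to 1.91) overlapped those of its neighbours Tap1 and Tap2.

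NPC against ESC compares the pathway between neural progenitor and stem cell cultures, in which markers of other cell types also differed, as given below. Heavy chains, tapasin, Tap2, both readable immunoproteasome genes and Nlrc5 were lower in NPC, Tap1 was higher, and B2m was not called. By edgeR, 7 of the 9 genes were lower and 1 higher, where 30.9% of the 17489 genes tested were lower and 61.3% were called in either direction. The median log2 fold change of the 9 was -1.43, against -0.01 for all genes tested. More than that share was lower among the 9, in a comparison in which most genes were called. Counts for the further lists in this comparison stand beside the same shares of 30.9% and 61.3%.

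H2-K1 (ENSMUSG00000061232; mm9 chromosome 17, 34132962 to 34137278, minus strand), a classical heavy chain, stood at 59.8 and 61.6 CPM in ESC and at 12.9 and 7.40 CPM in NPC. The groups did not overlap, and the log2 fold change was -2.58 (SE 0.29, adjusted p = 3.36e-04). H2-D1 (ENSMUSG00000073411; chromosome 17, 35399675 to 35404444, plus strand), the other classical heavy chain, stood at 38.9 and 38.1 CPM in ESC and at 9.14 and 6.49 in NPC, a log2 change of -2.30 (SE 0.23, adjusted p = 1.94e-04). For both heavy chains each NPC library lay below each ESC library. B2m (ENSMUSG00000060802; chromosome 2, 121973422 to 121978819, plus strand), whose product every class I heavy chain needs to fold, stood at 77.2 and 79.9 CPM in ESC and 73.7 and 71.3 in NPC. Its log2 fold change was -0.11 with a 95% interval of -0.42 to 0.19 (adjusted p = 0.460), an interval that leaves out a fall as large as that of either heavy chain. Heavy chain RNA per B2m RNA, as the sum of H2-K1 and H2-D1 over B2m per kilobase, was 42.3% and 41.3% in ESC and 9.89% and 6.45% in NPC.

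The transporter genes parted. Tap1 (ENSMUSG00000037321; chromosome 17, 34324498 to 34334170, plus strand) stood at 15.6 and 16.2 CPM in ESC and at 23.6 and 36.7 in NPC, both above ESC but far apart. Its log2 fold change was 0.92 (SE 0.26, adjusted p = 0.0177). That call was lost without NPC 2 (log2 fold change 0.58, adjusted p = 0.0573), without ESC 1 or ESC 2 (adjusted p = 0.102 and 0.0885) and with the ESC pair counted as 1 library (adjusted p = 0.0988). Tap2 (ENSMUSG00000024339; chromosome 17, 34340472 to 34353266, plus strand), the partner chain, went the other way, from 8.02 and 7.85 CPM to 2.70 and 3.64, a log2 change of -1.32 (SE 0.26, adjusted p = 0.00373). Per kilobase, Tap1 was 1.34 and 1.42 times Tap2 in ESC and 6.05 and 6.97 times in NPC. Opposite-strand gene models cover 18.5% of the exon bases of Tap2 and 3.87% of those of Tap1, the latter by Psmb9, and 6.83% of those of Psmb8, and whether the counts used strand is not given in the sources used here. Tapbp (ENSMUSG00000024308; chromosome 17, 34052844 to 34066235, plus strand), which holds the empty heavy chain next to TAP, stood at 59.3 and 52.0 CPM in ESC and 15.9 and 25.3 in NPC. It fell with a log2 change of -1.43 (SE 0.23, adjusted p = 0.00162).

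Psmb8 (ENSMUSG00000024338; chromosome 17, 34334666 to 34338399, plus strand), an inducible catalytic subunit, showed the widest difference among the 9 genes. It held 235 and 250 counts in ESC and 6 and 5 counts in NPC, or 14.5 and 15.2 against 0.395 and 0.325 CPM. Its log2 fold change was -5.34 (SE 0.46, adjusted p = 1.16e-04), and it was lower in NPC under each of the 15 alternatives tried. Psmb10 (ENSMUSG00000031897; chromosome 8, 108459628 to 108462292, minus strand), another inducible subunit, fell less, from 46.2 and 45.7 CPM to 18.2 and 19.1, a log2 change of -1.30 (SE 0.30, adjusted p = 0.00766). Nlrc5 (ENSMUSG00000074151; chromosome 8, 96996663 to 97051172, plus strand) was low in every library, with 75 and 96 counts in ESC and 16 and 8 in NPC. In CPM these were 4.63 and 5.84 against 1.05 and 0.519, and the log2 fold change was -2.73 (SE 0.38, adjusted p = 8.42e-04).

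**Figure D2:**
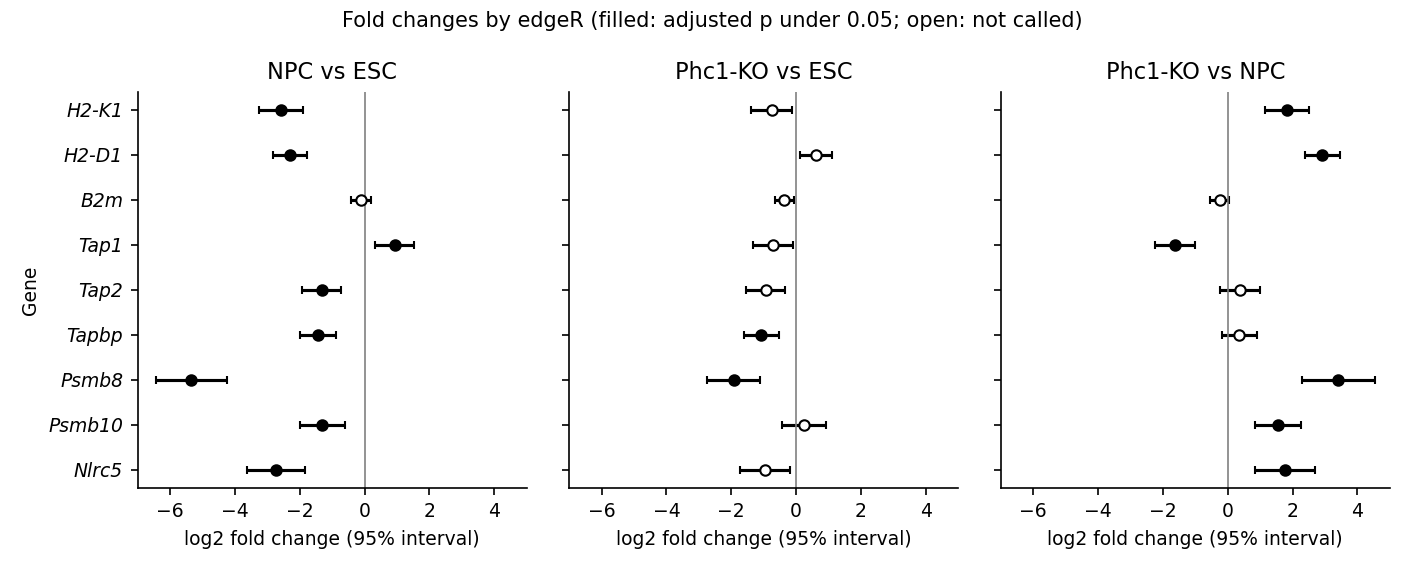
Log2 fold change of each class I pathway gene with its 95% interval by edgeR in the 3 comparisons (filled, adjusted p under 0.05; open, not called). In NPC against ESC the values run from -5.34 for Psmb8 to 0.92 for Tap1; in Phc1-KO against ESC only Psmb8 and Tapbp are filled.

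Constitutive subunits gave a scale for the inducible ones. Psmb5, which Psmb8 replaces, changed by -1.04 (SE 0.24, adjusted p = 0.00820) on the log2 scale in NPC and Psmb7, which Psmb10 replaces, by -0.72 (SE 0.15, adjusted p = 0.00519). Psmb6, the counterpart of Psmb9, was at -0.08 and not called. Per kilobase, Psmb8 RNA was 11.9% and 13.8% of Psmb5 RNA in ESC, 0.665% and 0.610% in NPC, and 2.07% and 2.60% in Phc1-KO, so the 3 groups did not overlap. Psmb10 RNA was 20.9% and 20.8% of Psmb7 RNA in ESC, 12.3% and 16.1% in NPC, and 15.4% and 25.8% in Phc1-KO, where the 2 libraries lay on both sides of ESC. These ratios are given as values, with no test. The other core subunits were lower for 6 of 11 in NPC (median -0.41), with 0 called when the ESC pair was counted as 1 library or without ESC 1 or ESC 2, and 1 without NPC 2.

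**Figure D3:**
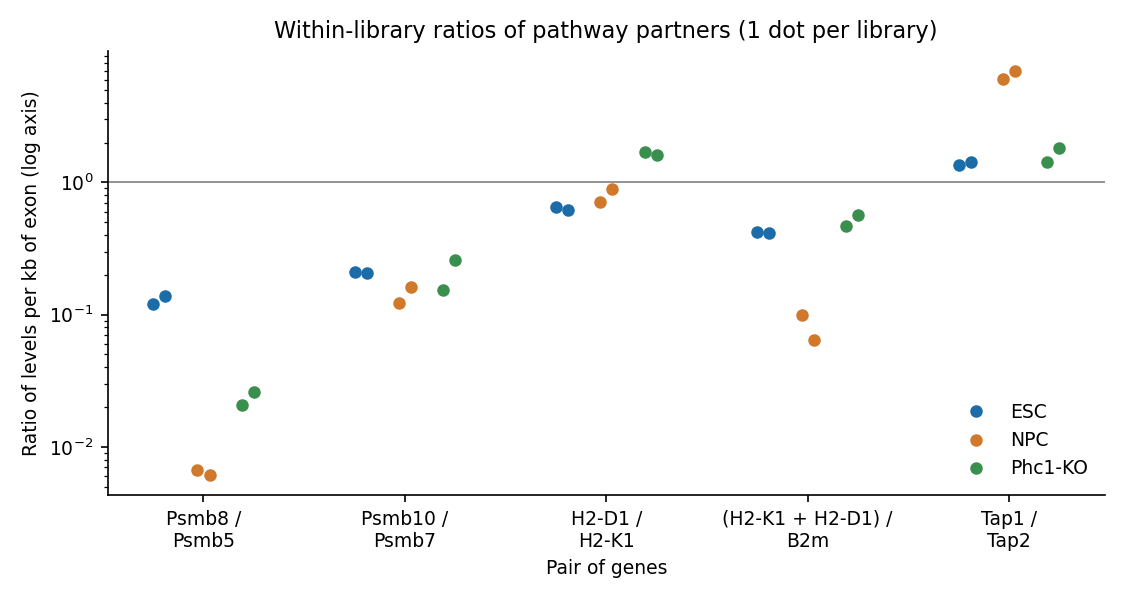
Ratio of levels per kilobase of exon for 5 pairs of pathway partners in each library, on a log axis with a line at 1. Psmb8 over Psmb5 falls from 0.119 and 0.138 in ESC to 0.00665 and 0.00610 in NPC; H2-D1 over H2-K1 lies above 1 in the Phc1-KO libraries.

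Genes for further heavy chains of the MHC were mostly lower in NPC too. The tables held 17 gene models of this list, and 14 passed the filter on low counts; 11 of these were lower in NPC, 0 higher and 3 not called, with a median log2 fold change of -2.86, the same with genes at 0 set to their bound. H2-Q6 and H2-Q2 (model ENSMUSG00000091705), of the Q region, held no count in NPC and were at least 30.3-fold and 40.9-fold lower, from a floor of 3 counts over the group. H2-M2 held 31 counts in ESC and 1 in NPC, a ratio of 29.1 with a 95% counting interval of 4.84 to 1184. H2-Q7 changed by -4.04 (SE 0.51) on the log2 scale and H2-M5 by -3.62 (SE 0.22). The 3 that were not called were of the T region, H2-T22 at 0.78, H2-T23 at 0.68 and H2-T24 at 0.28, and all were above 0; they were singled out once their values were known. H2-T10, of the same region, was called lower in NPC, from 19 and 20 counts to 2 and 7 (SE 0.53 on the log2 scale, adjusted p = 0.0138). Reads shared between these paralogs were not counted, so single values in the family are uncertain. Summed over 19 gene models, H2-K1 and H2-D1 included, the family had 2483 and 2625 counts in ESC and 599 and 544 in NPC, a log2 change of -2.07 (SE 0.16, adjusted p = 7.69e-05). Genes with an MHC fold outside the complex did not follow: Fcgrt, the neonatal Fc receptor, rose by 2.22 (SE 0.32), Cd1d1, which presents lipids, by 1.95 (SE 0.36) and Hfe, an iron regulator, by 1.59 (SE 0.31). In that list Procr, a protein C receptor, fell with a log2 fold change of -1.13 (SE 0.22), and 3 of 5 genes were higher and 1 lower.

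Partners that also serve general protein folding or peptide turnover were mixed. Of 11 loading and trimming genes 3 were higher and 3 lower in NPC, with a median of 0.00. Among all genes tested 61.3% were called in either direction. Lnpep, an aminopeptidase, rose by 1.002 (SE 0.13), and the chaperones Pdia3 and Canx rose by 0.52 (SE 0.15) and 0.49 (SE 0.13). Ide, a peptidase, changed by -1.13 (SE 0.25) and Erap1, which trims peptides inside the endoplasmic reticulum, by -0.75 (SE 0.17). Counted with the ESC pair as 1 library, or without ESC 1 or ESC 2, this list had 1 higher and 1 lower. Proteasome activators and assembly factors were lower for 6 of 9 and higher for 0 (median -0.82). Psme1, a subunit of the interferon-inducible activator PA28, changed by -1.34 (SE 0.21), its partner Psme2 by -0.86 (SE 0.27), and the assembly factors Psmg1, Psmg2 and Pomp by -1.14 (SE 0.21), -0.99 (SE 0.15) and -0.82 (SE 0.20). Without ESC 2, 3 of them were lower.

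Upstream genes went in both directions. All 4 interferon receptor genes and the kinase genes Jak1 and Jak2 were higher in NPC, with Ifngr1 at 2.02 (SE 0.21), Ifnar2 at 1.99 (SE 0.18), Ifngr2 at 1.84 (SE 0.20), Jak2 at 1.36 (SE 0.14) and Ifnar1 at 1.32 (SE 0.15) on the log2 scale. A further kinase gene, Tyk2, was at -0.27 and not called. Of the 11 genes in that list 6 were higher and 4 lower, and the 4 lower ones were not called with the ESC pair as 1 library or without ESC 1 or ESC 2. Genes that interferon induces were lower for 12 of 16 and higher for 1. Gbp2, a guanylate-binding protein, stood at 81.0 and 85.6 CPM in ESC and 1.38 and 2.08 in NPC, a log2 fold change of -5.58 (SE 0.25). Isg15 changed by -4.76 (SE 0.38), Ifit1 by -4.05 (SE 0.30) and Oasl2 by -3.63 (SE 0.38), while Oas1a held 75 counts in ESC and 1 in NPC, a ratio of 70.3 with a 95% counting interval of 12.2 to 2813. Among 14 transcription regulators of class I genes, 4 were higher and 5 lower, where 61.3% of all genes tested were called in either direction. Irf1, an activator of class I and immunoproteasome genes, went from 81.5 and 79.0 CPM to 19.2 and 26.6, a log2 fold change of -1.81 (SE 0.24), and Irf2, a relative of it, rose by 2.55 (SE 0.52). The PRC2 genes Ezh2 and Eed, whose complex is known to repress class I genes in tumour cells, changed by -1.60 (SE 0.16) and -1.53 (SE 0.15), and Nfyb, a Y-box factor subunit, by -1.34 (SE 0.13).

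Genes of MHC class II, the route of professional antigen-presenting cells, were few and low. Of 6 that passed the filter 3 were lower in NPC (Cd74, H2-Ab1 and H2-DMb1) and 2 higher (Ciita, the class II transactivator, and H2-Eb1), and these 5 held at most 47 counts in any library. Cd74 went from 26 and 27 counts in ESC to 1 and 5 in NPC, H2-Ab1 from 39 and 47 to 10 and 10, and Ciita from 9 and 1 to 20 and 16. The log2 fold changes of H2-DMb1 and H2-Eb1 were -1.81 (SE 0.56) and 1.30 (SE 0.43). The count of 5 fell to 2 or 3 with any single library left out, with the ESC pair as 1 library, and by DESeq2.

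**Figure D4:**
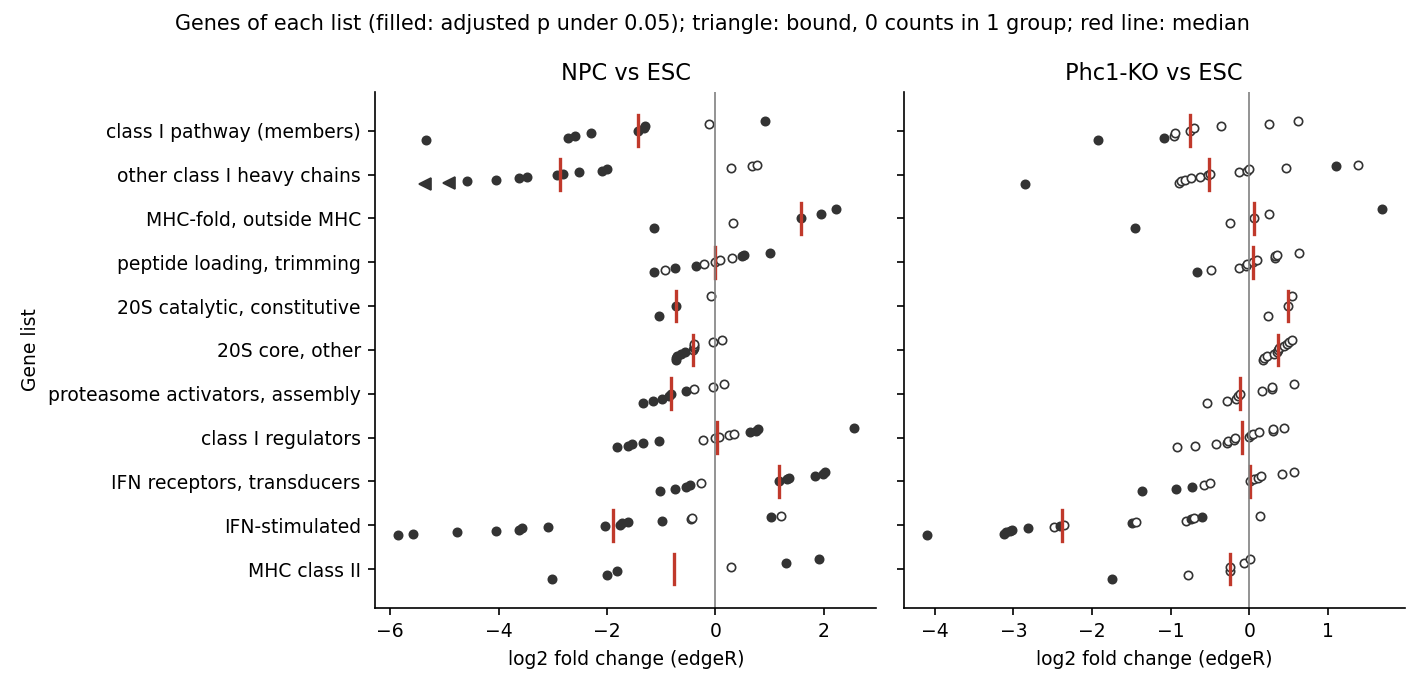
Log2 fold change of the tested genes of each list in NPC against ESC and in Phc1-KO against ESC (filled, adjusted p under 0.05; open, not called; triangle, a bound for a gene at 0 in 1 group; red line, median with such genes at the bound). Other class I heavy chains have a median of -2.86 in NPC against ESC and -0.51 in Phc1-KO against ESC, and interferon-stimulated genes -1.89 and -2.38.

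Phc1-KO against ESC addresses the pathway in stem cells labelled as lacking a PRC1 subunit. Psmb8 and Tapbp were lower in Phc1-KO, and no member was called higher. That is 2 of 9 genes lower, where 5.75% of all genes tested were lower and 10.7% were called in either direction. The median log2 fold change of the 9 was -0.75, against 0.00 for all genes tested. For 8 of the 9 genes the libraries of the groups did not overlap, which was so for 66.7% of all genes tested. At an unadjusted p under 0.05 there were 8 of the 9, and 29.3% of all genes tested. Both calls were lost with the ESC pair counted as 1 library and without ESC 1 or ESC 2, where 0.760%, 0.607% and 0.499% of all genes were called.

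Psmb8 stood at 14.5 and 15.2 CPM in ESC and at 2.57 and 5.22 in Phc1-KO, below ESC in both libraries but with the Phc1-KO values apart. Its log2 fold change was -1.93 (SE 0.34, adjusted p = 0.0199); leaving out Phc1-KO 2 gave -2.53 and leaving out Phc1-KO 1 gave -1.50, and the adjusted p was 0.117 with the ESC pair as 1 library, 0.133 without ESC 1 and 0.143 without ESC 2. Tapbp stood at 59.3 and 52.0 CPM in ESC and at 25.9 and 26.8 in Phc1-KO, a log2 change of -1.08 (SE 0.23, adjusted p = 0.0313). Leaving out either Phc1-KO library also ended that call (adjusted p = 0.112 without Phc1-KO 1 and 0.151 without Phc1-KO 2), while the log2 fold change stayed between -1.17 and -0.98 under the 15 alternatives.

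The classical heavy chains lay on opposite sides of ESC. H2-K1 was at 30.2 and 41.8 CPM in Phc1-KO against 59.8 and 61.6 in ESC, a log2 fold change of -0.75 (95% interval -1.39 to -0.12, adjusted p = 0.118). H2-D1 was at 51.3 and 67.3 CPM against 38.9 and 38.1, a log2 fold change of 0.62 (95% interval 0.13 to 1.12, adjusted p = 0.101). Neither passed the threshold over all genes. Per kilobase, H2-D1 over H2-K1 was 0.655 and 0.623 in ESC, 0.715 and 0.884 in NPC, and 1.71 and 1.62 in Phc1-KO, so H2-D1 was the more abundant of the pair in both Phc1-KO libraries and in no other. The ratio was not tested. Summed over the 19 heavy chain models the counts were 2700 and 3720 in Phc1-KO, a log2 change of 0.0385 (SE 0.15, adjusted p = 0.893). That sum pools genes that lay on both sides of ESC.

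Light chain, transporter and regulator were not called. B2m stood at 57.6 and 64.3 CPM in Phc1-KO, a log2 fold change of -0.36 (95% interval -0.67 to -0.06, adjusted p = 0.113). Tap1 was at 8.33 and 11.2 CPM (log2 fold change -0.70, 95% interval -1.32 to -0.08, adjusted p = 0.130) and Tap2 at 4.03 and 4.21 (log2 fold change -0.94, 95% interval -1.53 to -0.35, adjusted p = 0.0562). Nlrc5 was at 2.72 and 2.66 CPM, a log2 fold change of -0.96 (95% interval -1.73 to -0.18, adjusted p = 0.107). Each of these lay below both ESC libraries. Psmb10 did not, at 36.9 CPM in Phc1-KO 1 and 72.1 in Phc1-KO 2 around the ESC level; its log2 fold change of 0.25 (adjusted p = 0.613) became -0.31 without Phc1-KO 2 and 0.66 without Phc1-KO 1. When only these 2 groups were fitted, or without NPC 1 or NPC 2, 7 of the 9 genes passed, with H2-K1, Tap1, Tap2, Nlrc5, Psmb8 and Tapbp lower and H2-D1 higher; in those fits 23.4%, 20.2% and 20.3% of all genes were called.

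Around the pathway, interferon-stimulated genes were the list with the most calls in Phc1-KO, and also the list with the most genes tested. Of 16, 10 were lower and 0 higher, with a median log2 fold change of -2.38, where 5.75% of all genes tested were lower. Mx2, an antiviral GTPase, changed by -4.10 (SE 0.43), Isg15 by -3.12 (SE 0.31), Ifit1 by -3.09 (SE 0.27), Usp18 by -3.04 (SE 0.39) and Ifit3 by -3.02 (SE 0.38). The count of 10 fell with the ESC pair as 1 library and with ESC 1, ESC 2, Phc1-KO 1 or Phc1-KO 2 left out in turn. Each of those fits leaves 1 library in a group. Of the 11 receptors and transducers 3 were lower and 0 higher, among them Stat2 at -1.37 (SE 0.19) and the kinase Jak2 at -0.72 (SE 0.14); 0 of the list passed with the ESC pair as 1 library or without ESC 1, ESC 2 or Phc1-KO 2. Irf1 was at 34.0 and 50.8 CPM in Phc1-KO, below both ESC libraries, and had a log2 fold change of -0.92 (adjusted p = 0.0517). Of the 14 class I regulators 0 were called by edgeR, 3 had an unadjusted p under 0.05 (29.3% of all genes had), and 1 was lower by DESeq2; 2 were lower when only these groups were fitted.

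In the heavy chain family 1 of 14 genes was higher in Phc1-KO and 1 lower, where 858 of 17489 genes tested were higher and 1006 lower. The calls in this paragraph stand beside 10.7% of all genes called in either direction. A single call in a list is therefore not read as a result about that list. H2-M5 stood at 14.6 and 15.3 CPM in ESC and 30.1 and 34.5 in Phc1-KO, a log2 change of 1.11 (SE 0.17, adjusted p = 0.0143), and H2-M2 changed by -2.85 (SE 0.62), from 31 counts to 5. Neither passed with the ESC pair as 1 library or without ESC 1, ESC 2 or Phc1-KO 2; without Phc1-KO 1, and by DESeq2, 1 gene was higher and 0 lower. Procr rose by 1.69 (SE 0.21) and Mr1, which presents vitamin metabolites, changed by -1.45 (SE 0.32), both also without a call when the ESC pair was 1 library, without ESC 1 or ESC 2, or without Phc1-KO 2; without Phc1-KO 1, 1 of the list was higher and 0 lower. Of the loading and trimming genes only Npepps was called, at -0.66 (SE 0.16, adjusted p = 0.0483), and it lost the call with the ESC pair as 1 library and without ESC 1, ESC 2 or Phc1-KO 2. Of the class II genes only H2-Ab1 was called, at -1.74 (SE 0.33), and the call was lost by DESeq2, with the ESC pair as 1 library, and with ESC 1, ESC 2, Phc1-KO 1 or Phc1-KO 2 left out in turn. Constitutive catalytic subunits, other core subunits and proteasome activators gave 0 calls among 3, 11 and 9 genes by edgeR and by DESeq2. At an unadjusted p under 0.05 there were 1, 2 and 2, beside 29.3% of all genes. Without Phc1-KO 1, a fit with 1 Phc1-KO library, calls of higher levels appeared among the catalytic and other core subunits. The share of all genes called in that fit is not given here, so these calls are not read further.

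The comparison of Phc1-KO with NPC was read because the cell type entry of the Phc1-KO libraries says NPC. It shares the Phc1-KO libraries with the comparison above and the NPC libraries with the first, so its values are not independent of theirs. Both heavy chains, both readable immunoproteasome genes and Nlrc5 were higher in Phc1-KO and Tap1 was lower. By edgeR 5 of 9 genes were higher, where 32.3% of all genes tested were higher, and 1 was lower; 64.9% of all genes tested were called in either direction. H2-D1 was higher by 2.92 (SE 0.23, adjusted p = 7.38e-05) on the log2 scale and H2-K1 by 1.83 (SE 0.29, adjusted p = 0.00126). Psmb8 was higher by 3.42 (SE 0.47, adjusted p = 7.38e-04), Nlrc5 by 1.77 (SE 0.39, adjusted p = 0.00566) and Psmb10 by 1.55 (SE 0.30, adjusted p = 0.00329). Tap1 changed by -1.63 (SE 0.26, adjusted p = 0.00152). B2m (-0.25, 95% interval -0.55 to 0.05), Tap2 (0.38, 95% interval -0.23 to 0.99) and Tapbp (0.36, 95% interval -0.19 to 0.90) were not called, and Tapbp passed without NPC 2 (adjusted p = 0.0109).

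Across the 3 groups the genes therefore fell in several orders. Psmb8, Nlrc5 and H2-K1 were highest in ESC, between in Phc1-KO and lowest in NPC, without overlap of libraries; for Nlrc5 and H2-K1 the step from ESC to Phc1-KO did not pass the test. Tap2 and Tapbp had the same order, but the step from Phc1-KO to NPC did not pass for either, nor that from ESC to Phc1-KO for Tap2. H2-D1 ran from Phc1-KO down to ESC and NPC, with no call between Phc1-KO and ESC, and Tap1 from NPC down to ESC and Phc1-KO, with no call between ESC and Phc1-KO. Psmb10 was lowest in NPC, and B2m had no called step at all.

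Other cell types in the cultures can carry class I RNA, and their markers moved with the groups. In bulk RNA, fewer cells of a type cannot be told apart from less RNA per cell. The 13 macrophage markers summed to 164 and 160 CPM in ESC, 6.84 and 8.51 in NPC, and 42.6 and 27.0 in Phc1-KO. Psmb8, Nlrc5, H2-K1, Tap2 and Tapbp also had that order, and H2-D1, Tap1, Psmb10 and B2m did not. Lyz2 alone held 100 and 102 CPM of the ESC sums, and the markers differed in size of change. Cd68 went from 10.2 and 9.37 CPM in ESC to 8.64 and 9.29 in Phc1-KO, and Emr1 from 12.0 and 12.0 to 0.209 and 0.242. All 13 macrophage markers were lower in NPC, where 30.9% of all genes tested were lower. In Phc1-KO 9 of the 13 were lower, beside 5.75% of all genes tested. Emr1, Itgam, Tyrobp, C1qa, C1qb and C1qc were at 0 in both NPC libraries, and C1qb and C1qc in Phc1-KO 2. The 12 fibroblast markers summed to 792 and 781 CPM in ESC, 7698 and 11998 in NPC, and 2551 and 2294 in Phc1-KO. None was at 0. The largest part was another gene in each group. Col3a1 stood at 73.4 and 76.3 CPM in ESC, 4575 and 6361 in NPC, and 71.9 and 51.8 in Phc1-KO. Fbln2 stood at 329 and 323, 298 and 135, and 1162 and 1071 CPM in that order. In NPC 9 of 12 were higher and 1 lower, beside 5315 higher and 5406 lower of 17489 genes tested. In Phc1-KO 8 of 12 were higher and 0 lower, beside 858 and 1006 of 17489. The 6 endothelial markers ranged from 41.4 to 90.1 CPM in sum, but single genes moved in opposite directions. In NPC 2 were higher and 2 lower, where 61.3% of all genes tested were called, and in Phc1-KO 0 were called. Emcn went from 0.0617 and 0 CPM in ESC to 60.7 and 65.4 in NPC. Pecam1 went from 40.6 and 36.6 CPM to 0.658 and 0.649. The part that such cells have in the class I values was not tested.

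**Figure D5:**
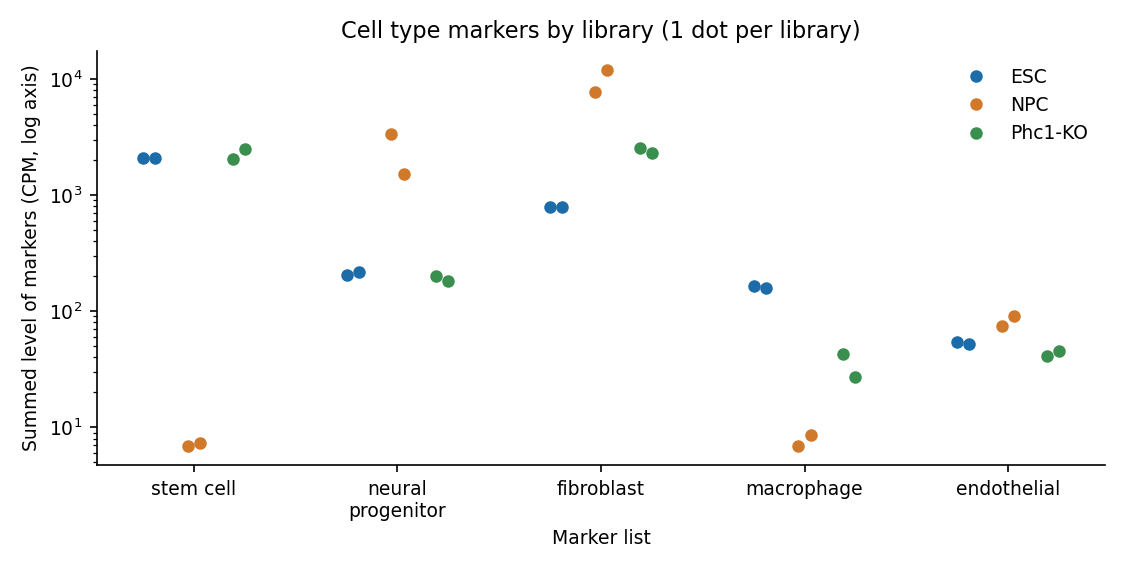
Summed level of the markers of 5 cell types in each library, in CPM on a log axis. Macrophage markers are highest in ESC, at 164 and 160 CPM, and lowest in NPC, at 6.84 and 8.51; stem cell markers in Phc1-KO lie near ESC.

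Likeness of pattern was measured as the root mean square distance between log2 CPM profiles over the 6 libraries, each centred on its own mean, among 13162 other genes with a symbol and a mean of at least 1 CPM. Nearest to H2-K1 were Plek2, Cpne9, Rassf9, Pvrl4 and Mycl1, at distances of 0.113 to 0.145. Nearest to B2m were Cntrob, Fam188a, Zfp182, Cog5 and Stam, at 0.0263 to 0.0519. Nearest to Nlrc5 were Tmem180, Pdgfa, Ube2t, Map3k15 and Syt9, at 0.148 to 0.168. None of these 15 genes belongs to the pathway lists, and with 3 groups of 2 libraries many genes have like profiles.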

How the data were processed

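The authors deposited raw read counts for each Ensembl gene, in 1 table per library, made with STAR and HTSeq on mm9, per the submitters' processing notes. The sources used here do not state tool versions, the annotation release or the strand setting. RNA was depleted of ribosomal RNA and read as 50-base single reads, per the labels' protocols. The 5 tally lines that name no gene were left out. GENCODE M1 (mm9) named 37205 of 37620 genes and gave positions and exon lengths. edgeR 4.0.16 in R 4.3.3 tested the counts (quasi-likelihood F test on all 6 libraries, 3 residual degrees of freedom; filterByExpr at 10 and 15 counts; TMM), with Benjamini-Hochberg adjustment over 17489 genes and a threshold of 0.05. SE is the size of the log2 fold change over the root of F. The fit was tested on simulated data.

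Reads carry no molecular identifiers, so intervals and floors hold for counting error alone. Only the labels say that replicates are separate, so p-values may measure technical spread. Members and lists were chosen with earlier results of these data known. Named were the 10 members and, per list and comparison with ESC, up to 5 called genes with the largest log2 fold change in either direction. One gene that this rule names is not reported here. Alternatives were DESeq2 1.42.0; RLE, upper-quartile and total-count scaling; the filter removed, or set at 1 CPM; the 2 groups alone; a replicate block; each library left out; the ESC pair as 1 library; and the heavy chains summed. Counts for the other lists under these were added after the data were seen. Figures used matplotlib 3.10.9.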

Additional observations from a re-analysis of the deposited data

How the results depend on the processing

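In NPC against ESC the called genes numbered 7 or 8 of 9 under all 15 alternatives, and in Phc1-KO against NPC 6 or 7; Tap1 in the first (4 alternatives) and Tapbp in the second (1) were the genes that moved. In Phc1-KO against ESC the count of 2 became 7 when only those groups were fitted and 0 with the ESC pair counted as 1 library, and ranged from 0 to 7 with each library left out in turn: 0 without ESC 1 or ESC 2, 1 without Phc1-KO 1 or Phc1-KO 2, 7 without NPC 1 or NPC 2. Total-count scaling gave 3, adding Tap2. The direction of 1 gene turned, without a call: in Phc1-KO against ESC, Psmb10 ran from -0.31 without Phc1-KO 2 to 0.66 without Phc1-KO 1. The value for the 19 summed heavy chain models, 0.0385, differed in sign from that of H2-K1, but pools genes on both sides of ESC. The cause of the turn was not tested. Upper-quartile scaling moved the median of all genes to -0.11 on the log2 scale in NPC against ESC and changed no call among the 9 genes.

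With the replicate number as a block, 8, 2 and 6 genes passed in the 3 comparisons, the same genes as without it; in Phc1-KO against ESC the further heavy chains then had 1 call in place of 2 and the class I regulators 1 in place of 0. The labels give replicates 1 and 2 in each group. Differences between replicates correlated across genes at 0.017 (ESC and NPC), 0.019 (ESC and Phc1-KO) and -0.020 (NPC and Phc1-KO). The ESC pair differed little, with a biological coefficient of variation of 1.98%, so the values with ESC do not show whether replicates were paired. Between NPC and Phc1-KO no shared replicate difference was seen. Whether libraries of the same number were prepared together was not tested. Counts of 6 and 5 for Psmb8 and of 16 and 8 for Nlrc5 limit the precision of their NPC levels.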
